A study of Mus musculus with 68 samples.

Results

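The genes described here are 5 transcription factors grouped under V2b interneurons, a class of inhibitory neurons of the ventral spinal cord: Tal1, Gata3, Gata2, Sox14 and Foxn4. They were chosen by symbol, with earlier results of these data known. Each of the 5, of 19938 genes measured, was represented by exactly 1 transcript cluster (a probe set that stands for a transcript on these arrays): 10507131 for Tal1, 10479981 for Gata3, 10539873 for Gata2, 10596023 for Sox14 and 10532807 for Foxn4. Their expression was followed in motor neurons derived from mouse embryonic stem cells (strain label C57/BL6) in a screen for factors that give motor neurons the properties of phrenic neurons, which drive the diaphragm. Retinoic acid and a Smoothened agonist were given to embryoid bodies on day 2. On day 5 the cells were sorted magnetically for CD2 or CD14, surface reporter transgenes specific to motor neurons. Doxycycline then induced the transgene of each line while the cells were cultured on matrigel for 30 h. YFP lines, carried through the same steps with the full 30 h of induction, were the control for each reporter.

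Of the 68 arrays in 31 groups, those central here were 4 of YFP in CD2 cells, 4 of YFP in CD14 cells, and 2 each of the following lines. Notch1 ICD, the intracellular domain of the receptor Notch1, was expressed in CD2 cells and has labels numbered 30 and 10. The line labelled NERT, a name used as the labels give it, was in CD14 cells with the same numbers. These numbers are read as hours of induction, since the protocol states that some Notch intracellular domain experiments were induced for the last 10 h only. YFP arrays were taken as induced for the full 30 h, so no YFP array matches the 10 h arrays in induction time. Lhx3, a LIM homeodomain factor of motor neurons and V2a interneurons, was expressed in CD2 cells, and its dominant-negative form (DN Lhx3) in a separate CD2 line. In CD14 cells each of these forms was combined with Pou3f1, a POU factor. The remaining lines were Arid5b, Btbd3, Chd5, Hey1, Hoxa5, Hoxc6, Klf5, Klf6, Pou3f1, Sfmbt2, Tox, Vwc2, Zbtb7c and Zic1 in CD2 cells, and Pou3f1, Flag-tagged Pou3f1, Pou3f1 with Hoxa5 and Pou3f1 with Hoxc6 in CD14 cells. H4 in CD2 cells (3 arrays) and E3 in CD14 cells (1 array, and 2 labelled induced) are given by the labels as parental, with no named factor. The labels give embryonic stem cells as the cell type. They do not say whether a line is 1 clone, nor whether the arrays of a group are of independent cultures. The p-values are therefore set against a spread among arrays that may be technical alone.

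V2 interneurons arise from p2 progenitors of the ventral neural tube, which express Foxn4, a forkhead factor. As these cells leave the cycle, Notch signalling splits them: cells with low Notch activity become excitatory V2a neurons, and cells with high Notch activity become inhibitory V2b neurons, which express Gata2, Gata3 and Tal1. Gata2 and Gata3 are zinc finger factors and Tal1 is a basic helix-loop-helix factor, and all of them also act in blood formation. Foxn4 is thus a factor of the progenitors from which both V2 classes arise. Sox14 is a repressor of the SoxB2 family found in several ventral interneuron classes, so that the shared name covers genes of different stages.

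Values are log2 expression as deposited, and differences are log2 differences with the standard error of a single limma model with batch terms. A gene was called where its Benjamini-Hochberg adjusted p over all 19938 genes was under 0.05. Array medians were 7.57 to 7.84 in batches 1 to 7 but 7.08 to 7.09 in batch 0, which held only the 2 induced E3 arrays. Every member read lower there, and these arrays entered no comparison. In batch 4, 6 of the 9 arrays stood apart with Hoxc5 at 12.14 to 12.50, against 8.02 to 10.24 in the other 3 (both Notch1 ICD 10 h arrays and 1 of Hey1). The motor neuron label held in the controls, where Isl1, a defining LIM factor of motor neurons, read 12.46 to 12.97. Induced Lhx3 read 11.03 and 11.38 in its CD2 line, against 7.69 to 7.86 in CD2 YFP. In the DN Lhx3 line Lhx3 read 7.94 and 8.26, and the difference of 0.33 was not called (limma adjusted p = 0.586), so its cluster gives no check of that label. Notch1 read 12.30 and 12.43 in the Notch1 ICD 30 h arrays, against 9.87 to 11.19 in CD2 YFP.

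Tal1 and Gata3 rose in both Notch lines after 30 h, and Gata2, Sox14 and Foxn4 were called in neither. Tal1 read 10.89 and 11.18 in the Notch1 ICD 30 h arrays and 10.75 and 11.01 in the NERT 30 h arrays. In CD2 YFP it read 8.05, 8.13, 8.18 and 8.27, and in CD14 YFP 8.10, 8.18, 8.20 and 8.40. The 4 arrays of 30 h induction lay above every other array: the remaining 62 arrays of batches 1 to 7 ran from 7.87 to 8.82. Tal1 was 2.89 ± 0.12 higher with Notch1 ICD (7.44-fold, 95% confidence interval 6.32 to 8.75, limma adjusted p = 3.25e-21), the rank 19 rise among all genes. With NERT it was 2.74 ± 0.12 higher (6.69-fold, interval 5.62 to 7.96, limma adjusted p = 3.08e-19), at rank 16. Within batch 3, which held both Notch1 ICD 30 h arrays and 2 of YFP, the difference was 2.92.

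Gata3, the other member that rose, read 9.91 and 9.94 with Notch1 ICD for 30 h, and 9.13 and 9.34 with NERT for 30 h. It read 7.29, 7.38, 7.78 and 7.93 in CD2 YFP, and 7.16, 7.37, 7.40 and 7.56 in CD14 YFP. Here too the 4 arrays were the highest, above a range of 6.83 to 8.62 in the other 62. Gata3 rose by 2.47 ± 0.17 with Notch1 ICD (5.54-fold, interval 4.37 to 7.03, limma adjusted p = 3.39e-14), at rank 35, and by 2.59 within batch 3. It rose by 1.75 ± 0.18 with NERT (3.38-fold, interval 2.61 to 4.36, limma adjusted p = 3.48e-09), at rank 76. The effect of NERT minus that of Notch1 ICD was -0.72 ± 0.25 for Gata3 (limma adjusted p = 0.4) and -0.15 ± 0.17 for Tal1 (0.884). No member passed in this comparison of effects, beside 0.326% of all genes in either direction, and construct and reporter cannot be told apart in it. Of all genes, 3.54% were called higher with Notch1 ICD and 2.91% with NERT, beside these 2 of 5 members. The members were chosen with earlier results of these data known, so their share describes the set and is no test of it. The median difference over the 5 members was 0.11 with Notch1 ICD (all genes -0.03) and -0.16 with NERT (all genes -0.06). The arrays hold bulk RNA, in which fewer cells of a type and less RNA per cell cannot be told apart.

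**Figure D1:**
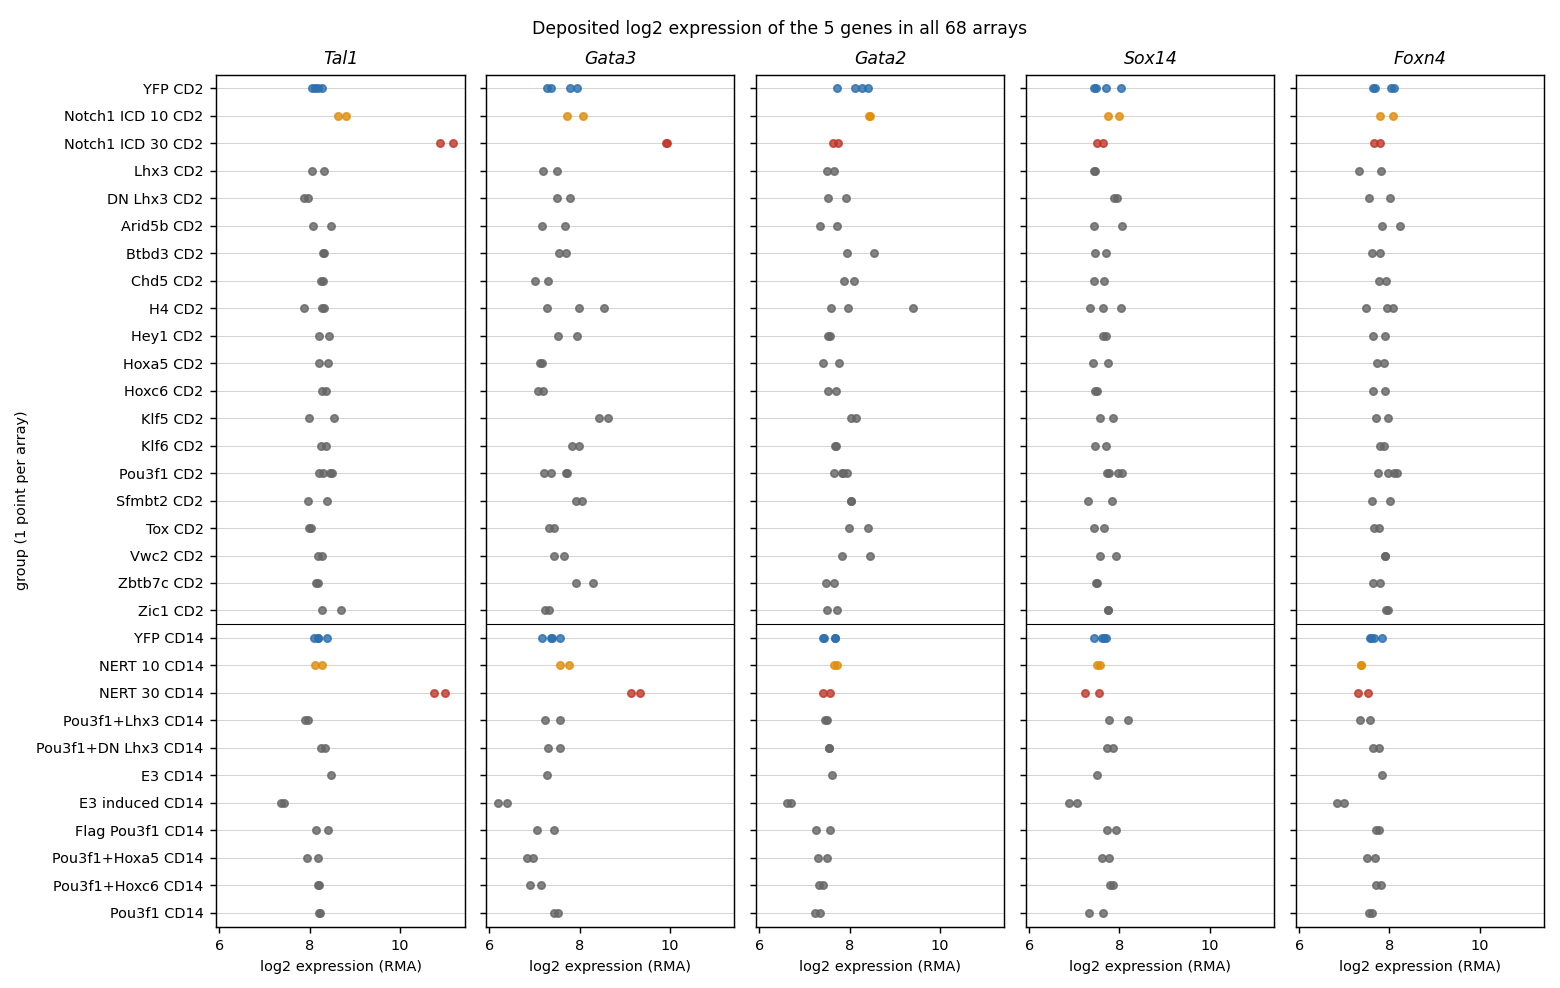
Deposited log2 expression (horizontal axis) of each gene in the 68 arrays, 1 point per array and 1 row per group; YFP is blue, 10 h Notch lines orange, 30 h Notch lines red, and the line separates CD2 from CD14 groups. For Tal1 the 4 arrays of 30 h induction sit at 10.75 to 11.18 and for Gata3 at 9.13 to 9.94, whereas the other 3 genes show no such separation, and the induced E3 arrays are low for all 5.

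Because the genes that rose together did so in lines of the Notch pathway, their proximal promoters are shown with the letters TGGGAA, the core of the motif of RBPJ, the DNA-binding partner of the Notch intracellular domain. The RefSeq promoter table (GRCm38.p6) matched all 5 genes, with 7 windows of 250 bases before a transcription start. Capitals mark TGGGAA on either strand. The windows of Tal1 are chr4:115056176-115056425 and chr4:115057561-115057810 on the plus strand, and that of Gata3 is chr2:9878601-9878850 on the minus strand.
Tal1, window 1: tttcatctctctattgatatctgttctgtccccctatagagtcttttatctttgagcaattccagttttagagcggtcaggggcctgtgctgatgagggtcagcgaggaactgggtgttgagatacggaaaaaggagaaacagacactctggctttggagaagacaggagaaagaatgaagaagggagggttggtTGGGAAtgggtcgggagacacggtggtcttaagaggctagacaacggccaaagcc
Tal1, window 2: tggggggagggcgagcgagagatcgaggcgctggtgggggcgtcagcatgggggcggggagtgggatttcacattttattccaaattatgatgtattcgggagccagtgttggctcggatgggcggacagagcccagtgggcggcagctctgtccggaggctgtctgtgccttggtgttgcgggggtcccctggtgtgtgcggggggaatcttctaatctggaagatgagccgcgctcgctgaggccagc
Gata3: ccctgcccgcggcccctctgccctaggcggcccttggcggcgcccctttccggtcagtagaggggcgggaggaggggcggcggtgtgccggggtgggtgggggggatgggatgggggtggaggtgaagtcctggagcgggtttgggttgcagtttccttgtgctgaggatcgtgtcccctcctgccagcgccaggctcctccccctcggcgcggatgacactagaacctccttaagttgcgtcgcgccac
The only TGGGAA match in the 7 windows was in the first Tal1 window, 55 to 50 bases before the start. That window also held the only match to GATAA, the core letters of a GATA site, read on the other strand 205 to 201 bases before the start. CANNTG, the E-box letters bound by helix-loop-helix factors, matched once, in the Sox14 window. Over all 32851 windows of this length in the table, 21.6% held TGGGAA, 22.6% GATAA and 66.2% CANNTG on either strand. A match describes letters only and is not evidence of binding, and the absence of one says nothing on regulation from elsewhere.

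Gata2, the GATA factor that precedes Gata3 in V2b cells, did not follow them. It read 7.64 and 7.74 with Notch1 ICD for 30 h, and 7.41 and 7.57 with NERT for 30 h. In YFP it read 7.73, 8.13, 8.28 and 8.41 in CD2 and 7.41, 7.44, 7.68 and 7.69 in CD14. In each construct 1 of the 2 arrays lay below every YFP array of its reporter, with NERT only just (7.409 against 7.413). The other array lay within the YFP range. Within batch 7 both NERT 30 h arrays lay below both YFP arrays (7.68 and 7.69). The differences were -0.26 ± 0.23 with Notch1 ICD (interval -0.73 to 0.21, limma adjusted p = 0.656) and -0.19 ± 0.25 with NERT (interval -0.69 to 0.31, 0.721). These intervals leave room for a small change, not for one of the size seen in Tal1.

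Sox14 read 7.51 and 7.64 in the Notch1 ICD 30 h arrays and 7.23 and 7.56 in the NERT 30 h arrays, against 7.45 to 8.02 in CD2 YFP and 7.43 to 7.70 in CD14 YFP. Its differences were 0.11 ± 0.16 (interval -0.22 to 0.43), which was not called, and -0.24 ± 0.17 (limma adjusted p = 0.485). Foxn4, the p2 progenitor factor, read 7.66 and 7.78 with Notch1 ICD and 7.30 and 7.53 with NERT, against 7.63 to 8.10 in CD2 YFP and 7.56 to 7.83 in CD14 YFP. Both NERT 30 h arrays were below all 4 of CD14 YFP, those of their own batch included. The differences were not called, at -0.16 ± 0.15 with NERT (0.615) and -0.09 ± 0.14 with Notch1 ICD (0.84). Across all arrays of batches 1 to 7 Sox14 spanned 0.95 and Foxn4 0.94 log2 units, against 3.31 for Tal1 and 3.11 for Gata3. The deposited table gives no detection call, so whether Gata2, Sox14 and Foxn4 were above the array background was not tested.

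After 10 h of induction, set against YFP arrays of 30 h, the rises were small or missing. With NERT for 10 h, Tal1 read 8.12 and 8.28 and Gata3 7.56 and 7.76, where Tal1 overlapped CD14 YFP and both Gata3 arrays lay above all 4 of CD14 YFP. No member was called, beside 0.416% of all genes in either direction. Tal1 differed by 0.06 ± 0.12 (interval -0.19 to 0.31, limma adjusted p = 0.922) and Gata3 by 0.18 ± 0.18 (interval -0.19 to 0.55, 0.813). Foxn4 read 7.37 and 7.38, below every CD14 YFP array, and differed by -0.20 ± 0.15 (0.752). At an unadjusted p under 0.05 there were 0 members too, and 1687 of all genes. The effect of NERT minus that of Notch1 ICD at 10 h was -0.63 ± 0.26 for Gata3 (0.388) and -0.30 ± 0.18 for Tal1 (0.629), with 0 members called beside 0.607% of all genes.

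With Notch1 ICD for 10 h, Gata3 was the 1 member called, beside 2.25% of all genes called higher. It read 7.72 and 8.07, which overlaps CD2 YFP, but the 7 other arrays of batch 4 read 7.02 to 7.53, and the fit with batch terms gave 0.81 ± 0.19 (limma adjusted p = 0.0105). Tal1 read 8.63 and 8.82, above every YFP array and above the 8.22 to 8.50 of the other batch 4 arrays, with 0.36 ± 0.13 (0.127). Gata2 read 8.43 and 8.46, above the 7.51 to 7.87 of the other batch 4 arrays, with 0.56 ± 0.26 (0.265). Batch 4 held no YFP array, so this comparison runs through lines shared with other batches. The Gata3 call was lost without batch terms (0.30, limma adjusted p = 0.62), without the 6 batch 4 arrays high for Hoxc5 (0.61, 0.413) and without replicate 2 of the line (0.63, 0.27), while Tal1 passed without batch terms (0.57, 0.0243), with arrays centred on their medians (0.48, 0.0305) and without the YFP array of batch 2 (0.48, 0.0371).

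The change from 10 h to 30 h was tested directly. Tal1 was 2.68 ± 0.12 higher at 30 h than at 10 h with NERT (limma adjusted p = 9.64e-19) and 2.53 ± 0.15 higher with Notch1 ICD (6.23e-15). Gata3 was 1.57 ± 0.18 higher with NERT (7.16e-08) and 1.66 ± 0.23 higher with Notch1 ICD (1.95e-06). These were the 2 members called higher of 5, beside 1.87% of all genes with NERT and 2.16% with Notch1 ICD. Gata2 moved the other way with Notch1 ICD without passing, at -0.82 ± 0.31 (0.109). The NERT arrays of both durations shared batch 7, whereas those of Notch1 ICD lay in batches 3 and 4.

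Some canonical Notch targets, the repressors Hes5, Hey2 and Heyl and the feedback inhibitor Nrarp, were called higher at 10 h in both constructs. Hey2 read 9.99 and 10.11 with NERT for 10 h and 12.18 and 12.39 for 30 h, against 7.30 to 8.11 in CD14 YFP. Hes5 read 10.51 and 10.79 at 10 h and 11.58 and 11.61 at 30 h, against 8.71 to 9.17. For both genes the groups do not overlap, and the 10 h arrays lie between control and 30 h. With NERT for 10 h, 4 of 12 measured targets and receptors of Notch rose, beside 0.391% of all genes: Hes5 by 1.74, Hey2 by 2.16, Heyl by 1.58 and Nrarp by 1.72, while Hey1 differed by 0.48 without passing (limma adjusted p = 0.633). With Notch1 ICD for 10 h 5 of 12 rose, beside 2.25% of all genes: Hes5 by 1.23, Hey1 by 1.07, Hey2 by 2.10, Heyl by 1.71 and Nrarp by 2.45. Without the 6 batch 4 arrays 3 of 12 rose. At 30 h 6 of 12 rose in each construct, beside 3.54% of all genes with Notch1 ICD and 2.91% with NERT. Hey2 rose by 4.56 with Notch1 ICD and 4.39 with NERT. None of the 12 fell, and the list medians were 1.24 and 0.86.

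**Figure D2:**
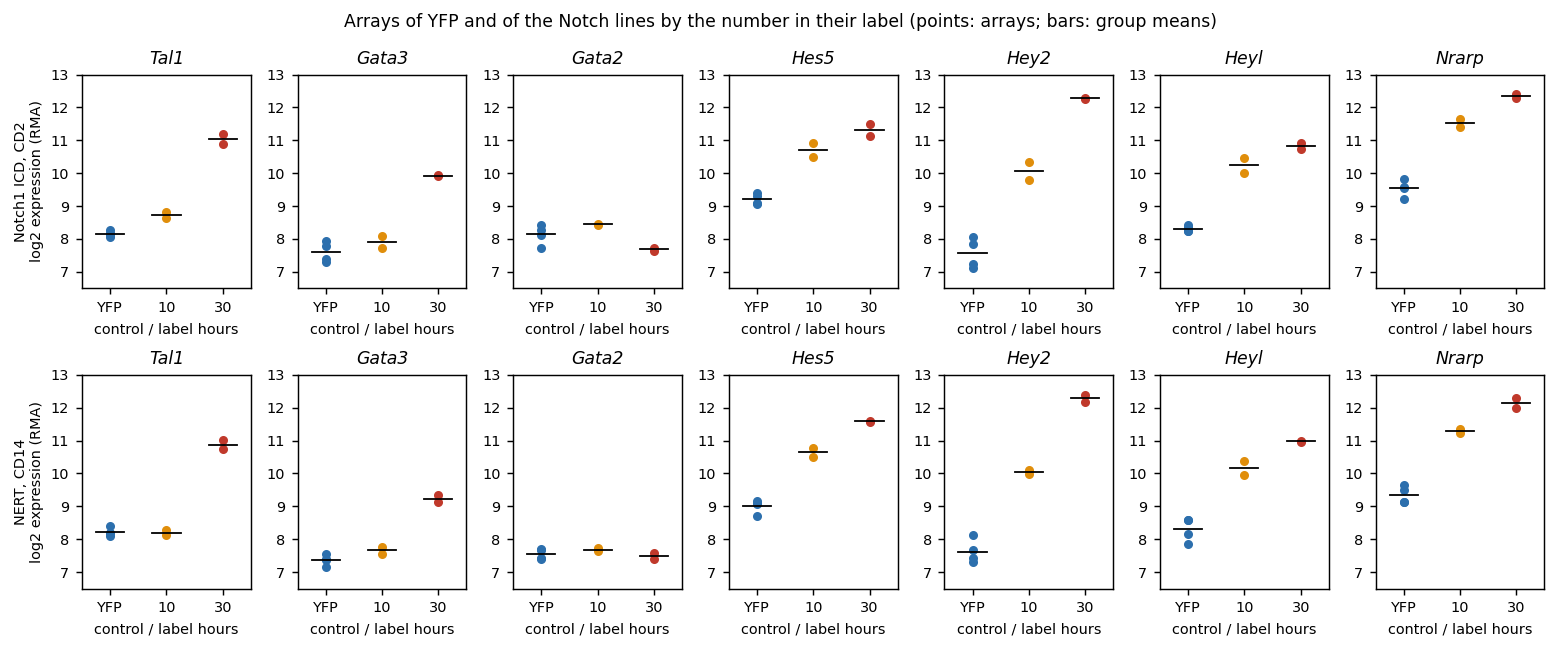
Log2 expression (vertical axis) of 3 members and 4 Notch targets in YFP arrays and in the Notch lines by induction time in hours, with Notch1 ICD in CD2 cells above and NERT in CD14 cells below; points are arrays and bars group means. Hes5, Hey2, Heyl and Nrarp stand above YFP at 10 h in both constructs, whereas Tal1 reads 8.12 and 8.28 with NERT for 10 h and 10.75 and 11.01 for 30 h.

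Other genes of the V2b programme were followed through a list of cofactors and partners. Of its 10 genes 8 were measured, including Lmo4 and Ldb1, which bridge Tal1 and GATA factors, the E proteins Tcf3 and Tcf12, the GATA cofactors Zfpm1 and Zfpm2, Sox1 and the ligand Dll4. None of the 8 was called in either direction in any of the 4 comparisons of Notch lines with YFP by limma, and the list median at 30 h was 0.04 with Notch1 ICD and -0.06 with NERT (all genes -0.03 and -0.06). Inhibitory transmitter genes moved in part, with 1 of 5 called higher in each construct at 30 h, and not the same gene. Of all genes, 3.54% were called higher with Notch1 ICD and 2.91% with NERT. Slc32a1, the vesicular GABA transporter, read 7.65 and 7.85 with Notch1 ICD for 30 h, above the 7.07 to 7.39 of CD2 YFP, and rose by 0.53 ± 0.13 (limma adjusted p = 0.00594). Gad2, a GABA-synthesising enzyme, read 7.33 and 7.46 with NERT for 30 h, above the 6.41 to 6.70 of CD14 YFP, and rose by 0.73 ± 0.14 (0.000349). With NERT for 30 h Slc32a1 differed by 0.22 (0.393), Slc6a9 by 0.17, Gad1 by -0.07 and Slc6a5 by -0.14, none of them called. Whether these genes were above the array background was not tested either.

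Most motor neuron genes and a few V2a genes were lower in the arrays in which Tal1 and Gata3 were high, beside 2.53% of all genes called lower with Notch1 ICD and 1.79% with NERT. Of 10 measured V2a and shared V2 genes, 2 fell with Notch1 ICD for 30 h and 3 with NERT for 30 h, and none rose. Irx3 and Irx5, Iroquois factors, fell by 0.96 and 0.89 with Notch1 ICD, and by 0.76 and 0.75 with NERT. Lhx4, a LIM factor of motor neurons and V2a cells, fell by 1.05 with NERT. Of 12 motor neuron genes 7 fell with Notch1 ICD and 9 with NERT at 30 h, among them Isl1 by 0.91 and 0.72, Isl2 by 1.24 and 0.95, and Mnx1 by 0.68 and 0.63. The medians of this list were -0.68 and -0.72. With Notch1 ICD the 7 became 4 without batch terms or without replicate 1 of the line. With NERT the 9 became 4 without replicate 1 of YFP in batch 7, and 3 without replicate 2 of the line. At 10 h 0 of 12 were called with NERT and 4 fell with Notch1 ICD, beside 0.712% of all genes, a count of 0 to 2 under 11 of the alternatives.

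Markers of other cells in which GATA factors and Tal1 act were examined beside these rises. At 30 h, 3.54% of all genes were called higher and 2.53% lower with Notch1 ICD, and 2.91% and 1.79% with NERT. Over 18 genes of endothelium and blood, the mean log2 level per array was 7.10 to 7.19 with Notch1 ICD for 30 h against 7.15 to 7.32 in CD2 YFP, and 7.01 to 7.05 with NERT for 30 h against 7.12 to 7.20 in CD14 YFP. None of the 18 was called with NERT. With Notch1 ICD the receptor Tek rose by 1.37, with arrays at 7.52 and 7.88 against 6.23 to 6.39, and Lmo2, a LIM-only partner of Tal1 in blood, fell by 0.64. Gata1, the erythroid GATA factor, read 6.81 to 7.07 in the 30 h arrays of both constructs and 7.01 to 7.30 in YFP. Of 10 measured paralogues of the members none was called with Notch1 ICD, and Foxn1 fell by 0.49 with NERT. None of 8 trophoblast genes and none of 3 genes of neurons that contact the cerebrospinal fluid, a spinal class that also depends on Gata2 and Gata3, was called with either construct at 30 h. Of 12 genes of V0, V1 and V3 interneurons, Lhx5 rose by 1.05 and Nkx2-2 fell by 1.71 with Notch1 ICD for 30 h, and none was called with NERT. Ddc, 1 of 5 serotonergic genes, fell by 1.29 with Notch1 ICD. With each construct 2 of 7 sympathetic and sensory genes fell, 1 of them Isl1, which is also on the motor neuron list. Among 14 Notch ligands and proneural genes, 2 rose and 3 fell with Notch1 ICD for 30 h (list median -0.23), and 2 rose and 1 fell with NERT for 30 h (-0.19). The ligand Jag1 rose by 1.46 with Notch1 ICD and 1.04 with NERT, and the ligand Jag2 fell by 0.61 and 0.60.

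Of 12 neural progenitor genes, 1 rose with Notch1 ICD for 30 h and 2 with NERT for 30 h, beside 3.54% and 2.91% of all genes. The list medians were 0.45 and 0.39 (all genes -0.03 and -0.06). The mean log2 level of the list, which was not tested, was 11.24 to 11.29 with Notch1 ICD for 30 h against 10.42 to 10.96 in CD2 YFP, and 11.14 with NERT for 30 h against 10.27 to 10.75 in CD14 YFP. Sox9, a factor of progenitors and glia, rose by 2.07 with Notch1 ICD and 2.09 with NERT, and Pax6, a progenitor factor, by 0.90 with NERT. The part of these genes' shift in the rises of Tal1 and Gata3 was not tested.

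In the Lhx3 lines no member was called against YFP. The background there was 3.81% of all genes called in either direction with Lhx3, 4.09% with DN Lhx3, 3.94% with Pou3f1 and Lhx3, and 4% with Pou3f1 and DN Lhx3. Sox14 read 7.89 and 7.94 with DN Lhx3, 7.44 and 7.46 with Lhx3, and 7.45, 7.48, 7.70 and 8.02 in CD2 YFP. The DN Lhx3 arrays lay above both YFP arrays of their own batch 3 but below the YFP array of batch 1. The difference was 0.44 ± 0.16 (limma adjusted p = 0.125), and that of Lhx3 from DN Lhx3 was -0.70 ± 0.28 (0.119). With Pou3f1 and Lhx3, Sox14 read 7.77 and 8.18, with 0.35 ± 0.17 (0.419), and with Pou3f1 and DN Lhx3 7.73 and 7.87, with 0.24 ± 0.17 (0.751). These 4 arrays lay above every CD14 YFP array, and 9 of all 17 CD14 arrays other than YFP in batches 6 and 7 did so, these 4 included.

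Foxn4 read 7.32 and 7.80 with Lhx3, overlapping the 7.63 to 8.10 of CD2 YFP, and 7.55 and 8.01 with DN Lhx3. It came closest to a call of the uncalled members, at -0.71 ± 0.22 with Lhx3 (interval -1.15 to -0.26, limma adjusted p = 0.0583), and -0.68 ± 0.24 for Lhx3 against DN Lhx3 (0.0944), a comparison with 0 members and 3.77% of all genes called in either direction. The Lhx3 arrays were in batches 5 and 6, which held no CD2 YFP, so there is no within-batch value. The unadjusted Foxn4 mean was 7.56 with Lhx3 and 7.86 in CD2 YFP, a smaller gap than the model gave. In the Zic1 line, from those same batches, Foxn4 differed by -0.32 ± 0.22 (0.647), although its unadjusted mean of 7.95 was above YFP. List medians for Lhx3 against YFP ran from -0.64 (trophoblast) to 0.25 (V2a and shared V2), with -0.05 over all genes. The Foxn4 difference passed after a further quantile normalization (-0.73, 0.0353), with arrays centred on their medians (-0.74, 0.0329), and without the YFP array of batch 2 (-0.80, 0.0459), replicate 2 of YFP in batch 3 (-0.75, 0.0487) or the Lhx3 array of batch 6 (-0.81, 0.029). Against DN Lhx3 it passed without replicate 1 of DN Lhx3 (-0.91, 0.0286) or that same Lhx3 array (-0.79, 0.0494).

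Tal1, Gata3 and Gata2 were likewise not called in these 4 lines. Tal1 read 7.88 and 7.96 with DN Lhx3, below every CD2 YFP array, with -0.23 ± 0.12 (limma adjusted p = 0.331). It read 8.06 and 8.32 with Lhx3, where the model gave -0.44 ± 0.18 (0.136) although the unadjusted group mean of 8.19 was near the 8.16 of YFP. With Pou3f1 and Lhx3 it read 7.89 and 7.96, below every CD14 YFP array, with -0.21 ± 0.12 (0.54). The Gata3 differences ran from -0.07 to 0.19 and those of Gata2 from -0.24 to 0.13 over the 4 lines. Among the other V2b genes Lmo4 rose by 0.87 with Lhx3 and 0.74 with Pou3f1 and Lhx3, and Zfpm2 fell by 0.87 with DN Lhx3 and 1.53 with Pou3f1 and DN Lhx3. Of 10 V2a and shared V2 genes, 1 rose and 0 fell with Lhx3, the 1 being Lhx3 itself. With DN Lhx3 4 rose and 2 fell, with Pou3f1 and Lhx3 4 rose and 2 fell, Lhx3 itself among those that rose, and with Pou3f1 and DN Lhx3 5 rose and 2 fell. With Pou3f1 and Lhx3, Nkx6-2 rose by 2.37 and Shox2 by 1.72, while Irx3 fell by 0.66 and Irx5 by 0.92. Among the CD14 lines, 0 members were called between the pairs with Lhx3 and with DN Lhx3 (1.23% of all genes), or between these pairs and Pou3f1 alone (0.502% and 2.11%).

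Over all 27 comparisons with YFP, 6 of the 135 pairs of member and comparison were called, all higher. Tal1 accounted for 2 and Gata3 for 4, while Gata2, Sox14 and Foxn4 had none. Over the same comparisons 1.12% of all pairs of gene and comparison were called higher, a share that takes no account of how the members were chosen. The sixth call was Gata3 in the line of Klf5, a Krüppel-like zinc finger factor, where 0.271% of all genes were called higher. Gata3 read 8.42 and 8.62 there, above every CD2 YFP array, and was 0.79 ± 0.17 higher (limma adjusted p = 0.0194), with 0.69 in batch 1 and 0.65 in batch 2 against the 1 YFP array of each. The 11 other arrays of those batches read 7.70 to 8.55, so 1 of them lay among the Klf5 values. The call was lost with CD2 arrays fitted apart (0.79, 0.0865) and without either Klf5 array (0.71, 0.799, and 0.88, 0.0862).

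Outside these calls the differences from YFP were narrow for Tal1, from -0.44 in the Lhx3 line to 0.36 in the Notch1 ICD 10 h line, and for Gata3, from -0.36 with Pou3f1 and Hoxa5 to 0.57 in the parental H4 line. Those of Sox14 ran from -0.28 with Sfmbt2 to 0.44 with DN Lhx3, and those of Foxn4 from -0.71 with Lhx3 to 0.10 with Arid5b. Gata2 had the widest uncalled range, from -0.78 ± 0.24 with Zbtb7c (limma adjusted p = 0.248) to 0.56 with Notch1 ICD for 10 h. Its Zbtb7c arrays read 7.47 and 7.65, below every CD2 YFP array. In the Hey1 line, which expresses a Notch target itself, Gata2 differed by -0.58 ± 0.24 (0.317), Tal1 by 0.11 ± 0.12 (0.811) and Gata3 by 0.34 ± 0.17 (0.464).

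**Figure D3:**
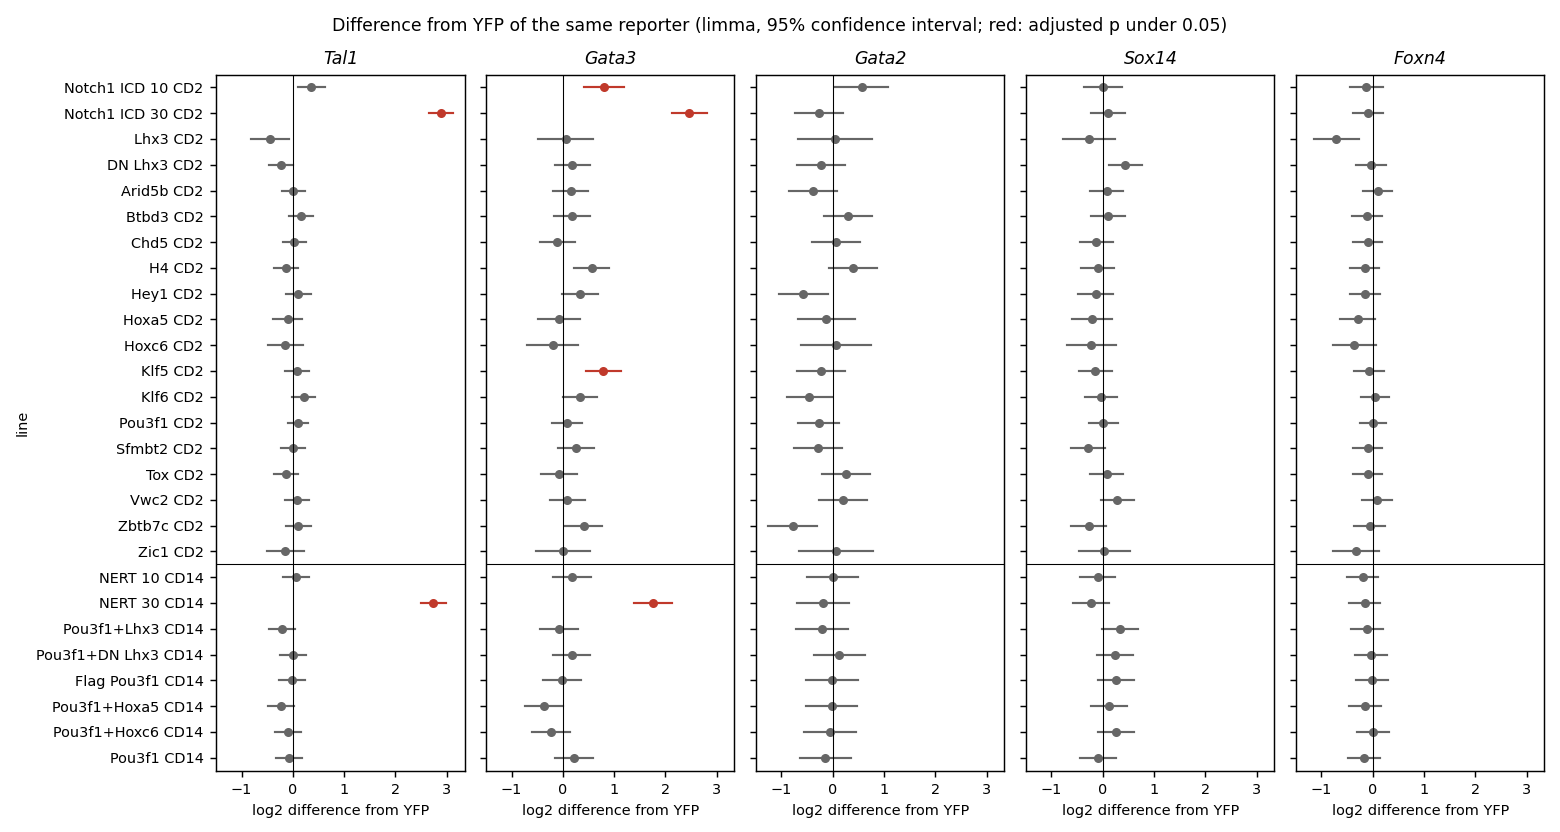
Log2 difference from YFP of the same reporter (horizontal axis) for each gene in the 27 lines, with points for the estimate, bars for the 95% confidence interval and red for an adjusted p under 0.05. Red marks appear 2 times for Tal1 and 4 times for Gata3, and the Foxn4 interval of the Lhx3 line runs from -1.15 to -0.26.

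The order of group means shows how far each member separated the lines. For Tal1 the means were 11.04 ± 0.21 (SD, n = 2) with Notch1 ICD for 30 h, 10.88 ± 0.18 with NERT for 30 h and 8.72 ± 0.13 with Notch1 ICD for 10 h, then 8.49 ± 0.29 with Zic1. The first pair overlapped, and so did the last. For Gata3 the order began with Notch1 ICD for 30 h at 9.92 ± 0.02, NERT for 30 h at 9.23 ± 0.15 and Klf5 at 8.52 ± 0.14, and went on with Zbtb7c at 8.11 ± 0.27, with no overlap between neighbours. Gata2 was highest in the Notch1 ICD 10 h line at 8.44 ± 0.02, followed by H4 at 8.33 ± 0.96 (SD, n = 3), Btbd3 at 8.24 ± 0.43 and Tox at 8.20 ± 0.31, each overlapping the next. Sox14 began with Pou3f1 and Lhx3 at 7.98 ± 0.29 and DN Lhx3 at 7.91 ± 0.04, and Foxn4 with Arid5b at 8.03 ± 0.28 and Pou3f1 in CD2 cells at 7.99 ± 0.18 (SD, n = 4), with neighbours overlapping in both.

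The spread of Gata2 in H4 came from a single array. The H4 arrays read 9.42 in batch 2, 7.59 in batch 4 and 7.97 in batch 5, and the first was the highest Gata2 value of all arrays, with 7.47 to 8.41 in the other 8 arrays of batch 2. Gata3 read 8.55 in that array, above the 7.70 to 8.42 of the others, while Tal1 read 7.87, below their 7.97 to 8.27. It is also the array that lies among the Klf5 values of Gata3. Leaving it out changed no call on a member in the comparisons of the Notch, Lhx3 and Klf5 lines.

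Genes with the pattern most like each member were ranked by Pearson correlation over the 66 arrays of batches 1 to 7, each less the mean of its batch and reporter. These correlations are descriptions over arrays that share lines and batches. For Tal1 they were Qrfpr (r = 0.96), Frmpd1 (0.94), Rspo1 (0.94), Slc6a17 (0.94) and Trpc7 (0.94), and for Gata3 they were Tal1 (0.88), Amigo2 (0.88), Myo5b (0.87), Itih5 (0.87) and Osmr (0.87). All of these 10, Tal1 itself among them, rose at 30 h in both constructs, Qrfpr by 3.36 with Notch1 ICD and 3.96 with NERT and Osmr by 4.24 and 2.23. Such rises follow from how the genes were picked and are no separate result. The likeness rests on the 4 arrays of 30 h induction: over the 62 others r was 0.33 for Tal1 and Qrfpr and 0.26 for Tal1 and Gata3. For Gata2 the closest were Npl (0.75), Capsl (0.75), Stxbp6 (0.74), Slc17a8 (0.72) and Pdia4 (0.72), and over the 62 arrays these were 0.72 to 0.76. Sox14 was closest to Dlx5 (0.71), Necab3, Ucn3, Tafa3 and Vip (0.60 to 0.64), and Foxn4 to Myoz3 (0.81), Mir139, Gjb1, Col7a1 and Plin5 (0.76 to 0.79).

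Among the members themselves, Tal1 and Gata3 were the only pair with r above 0.4 over the 66 arrays. Sox14 and Foxn4 had r = 0.35, and Gata2 had r = 0.02 with Gata3 and -0.13 with Tal1. Without the 4 arrays of 30 h induction Gata2 and Gata3 had r = 0.33. Against list means, Tal1 and Gata3 had r = 0.79 and 0.82 with the Notch targets and receptors, falling to 0.39 and 0.51 without those 4 arrays. Gata2 had r = 0.24 with that list over the 66 arrays and 0.55 over the 62, and Foxn4 had r = 0.62 with the endothelium and blood list, whose level was near 7 in every group described.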

How the data were processed

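RNA from 68 samples was hybridised to Affymetrix arrays. The deposited table holds log2 values, made by the authors with RMA through oligo, per the submitters' processing notes (tool versions: not given in the sources used here). RMA usually includes quantile normalization, which can hide a shift of most genes. Genes were named from the array annotation, and 1 cluster per symbol was kept (highest mean), which left 19938. limma 3.58.1 (R 4.3.3; lmFit, eBayes) was fitted to all arrays with a term per group and batch (31 residual and 6.08 prior degrees of freedom), for 35 two-sided comparisons, and was tested on simulated data. The members and all 14 gene lists were chosen with earlier results of these data known. Text names the members, induced or marker genes set for the design, at most 4 called genes per list and comparison, and the 5 genes most alike. RIKEN, predicted and olfactory receptor genes were left out of naming; Hoxc5, Gata1 and the V2b partners fall outside this rule and were named after their values were seen. Scanner intensities were not analysed here, and the number of arrays limits the precision. Alternatives covered batch, reporter, normalization, filter, replicate and left-out arrays; leaving out the H4 array of batch 2, or batch 0, was added after seeing the data. Replicate numbers were not used to pair samples in the main fit.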

Additional observations from a re-analysis of the deposited data

Results flagged for a closer look

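The effect of the Notch lines differed between the 10 h and 30 h inductions for 2 members, by a test of the difference within the limma model. Tal1 was 2.68 higher at 30 h than at 10 h with NERT (limma adjusted p = 9.64e-19) and 2.53 higher with Notch1 ICD (6.23e-15). Gata3 was 1.57 higher with NERT (7.16e-08) and 1.66 higher with Notch1 ICD (1.95e-06). Among the 15 sets of 4 arrays tested (5 members in 3 groups), no array stood far from the others. Smaller groups were not tested, which leaves out every Notch and Lhx3 line and H4.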

How the results depend on the processing

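The rises of Tal1 and Gata3 at 30 h over YFP kept their call in all 18 alternatives for each construct, at 2.75 to 3.04 and 2.33 to 2.59 with Notch1 ICD, and 2.62 to 2.87 and 1.61 to 1.86 with NERT. Of 1455 alternatives over 85 effects on members, 6 lost a call, 12 gained one and 0 reversed a called direction, while 32 of the 75 uncalled effects changed sign in some alternative. With Notch1 ICD for 10 h, the 1 member called became 2 with arrays centred on their medians and 0 without the 6 batch 4 arrays, and 0 to 2 with 1 array left out. Without batch terms it stayed 1, with Tal1 in place of Gata3. With Lhx3, 0 became 1 after a further quantile normalization or centring on medians, and 0 to 1 with 1 array left out. Genes called with Notch1 ICD for 30 h were 1210, against 751 with CD2 arrays fitted apart, 557 in batch 3 alone and 703 to 1231 with 1 array left out. With NERT for 30 h they were 938, against 1864 without batch terms, 3717 with CD14 arrays fitted apart, 2788 in batch 7 alone and 371 to 885 with 1 array left out. With 1 array left in a group, it is assumed to vary like the others. Except where a setting leaves fewer arrays, the cause of these changes was not tested. Same-numbered replicates did not deviate together in every pair (r of -0.17 to 0.57 in batch 3, -0.14 to 0.16 in batch 6 and -0.14 to 0.18 in batch 7). In batch 3, r was over 0.1 in 6 of 15 pairs of groups, so some shared deviation there cannot be set aside. The numbers were not used to pair samples in the main fit. With replicate number as a block, the members called with DN Lhx3 went from 0 to 1 (Sox14, 0.47, limma adjusted p = 0.0397), and Gata2 in Notch1 ICD at 30 h against 10 h passed at -0.71 (0.0386).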
